A study of Sander lucioperca with 12 samples.

Results

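Whole brains of young-of-the-year pikeperch, a freshwater perch-like predator, were sequenced in 12 libraries, and the 6 brains of 2023 fell apart by 1 transcript. The transcript was prl, which encodes the pituitary hormone prolactin. Its level in CPM (read counts of a gene divided by the library total and put on a common scale of 1e+06) exceeded 10 in 3 libraries of 2023 and stayed below 10 in the other 3. The sides compared here were chosen by this measured level alone, over the library total. The side above the threshold held piscivore 1, piscivore 2 and planktivore 4, and the side below it held piscivore 4, planktivore 5 and planktivore 6, so that both phenotypes stood on each side. The nearest libraries on either side were planktivore 4 with 68.4 CPM of prl and piscivore 4 with 0.186 CPM. Libraries without a year are those of 2023 throughout.

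All fish were wild and came from Lipno Reservoir in August, 3 piscivores and 3 planktivores in each of 2022 and 2023. Piscivores were seined at night in the littoral zone and planktivores trawled at night in the pelagic zone, so gear, habitat and body size went with the phenotype. No fish received a treatment, sex could not be told at this age, and each library was made from the poly(A) RNA of 1 brain. Whether the pituitary was kept with the brain at dissection was not given in the sources used here. The 32963 named genes received 15327406 to 33858794 counts in a library, and 3 counts, the lowest level taken as detectable, corresponded to 0.0803 to 0.196 CPM after TMM scaling. CPM values below carry this scaling. Genes of ribosomal RNA took 12.0% to 21.0% of the counts in 2022, 0.137% to 0.3595% in the libraries above the prl threshold and 0.139% to 0.253% in those below it, so this share differed between years and overlapped between the sides.

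The pituitary hangs beneath the hypothalamus, and when a fish brain is lifted out it may stay with the brain or in the floor of the skull. In teleosts its cell types lie in zones. Prolactin and corticotropic cells fill the rostral pars distalis, growth hormone, thyrotropic and gonadotropic cells the proximal pars distalis, and somatolactin and melanotropic cells the pars intermedia. Each cell type makes very large amounts of its own hormone transcript under the control of a small set of transcription factors, among them pou1f1, pitx1, lhx3 and tbx19. Pro-opiomelanocortin, the precursor of corticotropin and melanotropin, is also transcribed in neurons of the hypothalamus. In bulk RNA, fewer cells of a type and less RNA per cell cannot be told apart.

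Of the 10 pituitary hormone genes measured, 9 were higher in all 3 libraries above the threshold than in all 3 below it. Over all 21386 genes tested in 2023, 10.5% lay higher in this way and 12.8% lower. Since prl itself chose the libraries and hormone transcripts come from the same tissue, these values are a description and no test was made over the split. Each hormone is therefore given by library.

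The prl gene lies on chromosome 17 (SLUC_FBN_1.2, 26522393 to 26527276) and reached 640.6 CPM in piscivore 1, 399.7 in piscivore 2 and 66.6 in planktivore 4. On the other side 6 counts were found in piscivore 4, 2 in planktivore 5 and 1 in planktivore 6. Prolactin is the hormone that keeps fish in ion balance in fresh water. Its transcript was at least 386-fold higher in any library of the upper side than in any of the lower. Because the split was made on prl, a separation in this gene was given in advance.

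Growth hormone, gh1 (chromosome 21, 20338720 to 20341594), stood at 693.8 CPM in piscivore 1, 1088 in piscivore 2 and 78.7 in planktivore 4. None of the 3 libraries below the threshold held a single gh1 count. Set against the floor of 3 counts per library, the lowest library above was at least 795-fold higher. Growth hormone and prolactin belong to 1 hormone family, which in fish also holds somatolactin.

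Somatolactin, smtla (chromosome 8, 29750365 to 29756380), is made in the pars intermedia and is known from studies of body colour and metabolism in fish. It reached 944.2 CPM in piscivore 1, 597.4 in piscivore 2 and 230.6 in planktivore 4. Below the threshold piscivore 4 had 0 counts, planktivore 6 had 1 and planktivore 5 had 95, or 2.61 CPM. Planktivore 5 thus carried somatolactin where its prl was at 2 counts and its gh1 at 0.

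Both pro-opiomelanocortin genes are annotated as pomca in the study's tables, LOC116055658 on chromosome 16 (29828770 to 29834033) and LOC116044757 on chromosome 24 (17216476 to 17217700). LOC116055658 reached 1542 CPM in piscivore 1, 1440 in piscivore 2 and 444.4 in planktivore 4. It stood at 4.36 CPM in piscivore 4, 15.8 in planktivore 5 and 5.05 in planktivore 6. LOC116044757 followed the same order, with 859.2, 595.8 and 218.9 CPM above and 4.82, 10.9 and 5.35 CPM below. These were the only hormone genes with at least 152 counts in every library below the threshold, and for both the highest of these libraries was planktivore 5, the one with somatolactin.

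The glycoprotein hormones of the pituitary share the alpha subunit cga and take their specificity from a beta subunit. The alpha subunit (chromosome 18, 10641152 to 10649327) lay at 194.2 CPM in piscivore 1, 166.4 in piscivore 2 and 113.6 in planktivore 4, against 0.144, 0.440 and 0.165 CPM in piscivore 4, planktivore 5 and planktivore 6. The beta subunit of thyrotropin, tshba (chromosome 6, 11242237 to 11244262), stood at 97.4, 84.4 and 73.1 CPM above and at 4 or 5 counts in each library below. Thyrotropin drives the thyroid, and its transcript was among the most even of the upper side.

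The beta subunits of the gonadotropins, which act on the gonads, stood lower per length, with 36.8 to 45.2 TPM (the deposited unit that corrects for gene length) of lhb and 1.07 to 4.998 TPM of fshb in the upper libraries against 119.2 to 185.4 TPM of tshba. For luteinizing hormone, lhb (chromosome 15, 32844016 to 32845923) lay at 10.1, 9.85 and 9.57 CPM in the upper libraries and at 0, 1 and 0 counts in the lower. Against the floor of 3 counts per library the lowest upper library was at least 96.6-fold higher. For follicle-stimulating hormone, fshb (chromosome 3, 40746830 to 40760502) had 2.17, 2.61 and 0.580 CPM above and 0.201, 0.220 and 0.132 CPM below. In 2022 fshb reached 0.894 CPM in planktivore 2, which held 1 prl count, so it was not bound to the upper side. A further prolactin gene, prl2, was the exception among the hormone genes of 2023. It was detected at 0.830, 2.22 and 1.37 CPM above and at 1.46, 0.688 and 0.495 CPM below, so its sides overlapped.

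**Figure D1:**
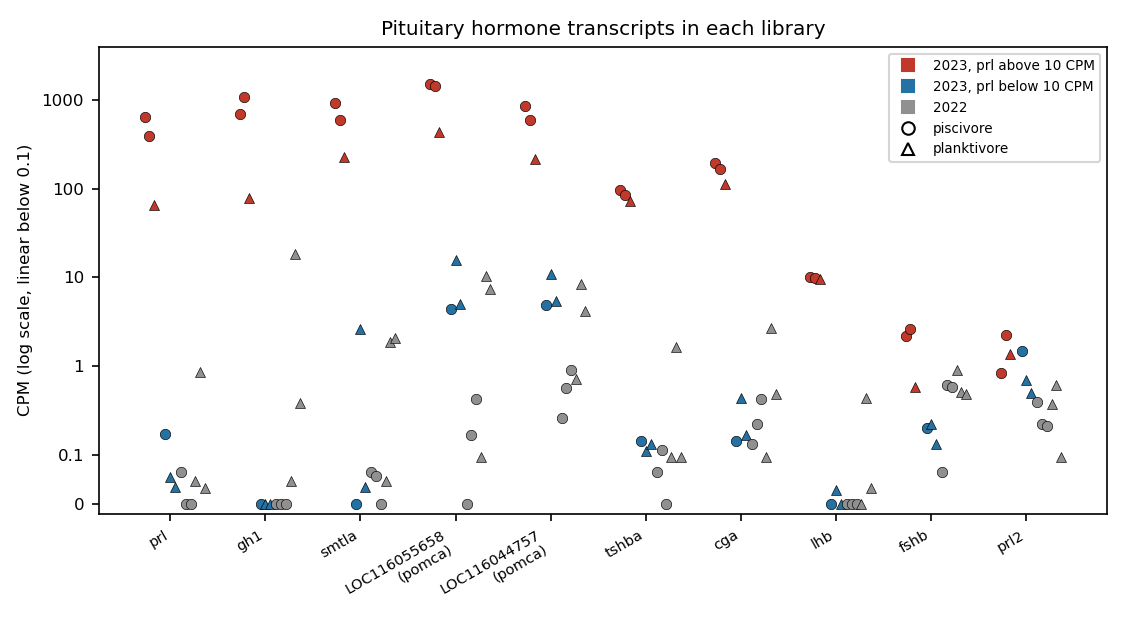
CPM (log axis, linear below 0.1) of the 10 pituitary hormone genes in each of the 12 libraries, with circles for piscivores, triangles for planktivores and colours for the side of the prl threshold and for 2022. In all genes but prl2 the 3 red points lie above the 3 blue ones. The lowest red and the highest blue point are 78.7 and 0 CPM in gh1 and 0.580 and 0.220 CPM in fshb.

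Together the 10 hormone genes took 0.550% of all counts in piscivore 1, 0.450% in piscivore 2 and 0.127% in planktivore 4. In the libraries below the threshold they took 0.0012% to 0.0034%, and most of those counts came from the pair of pro-opiomelanocortin genes, with 320 of 394 in piscivore 4, 970 of 1121 in planktivore 5 and 315 of 345 in planktivore 6. Levels of different genes were compared only in TPM. On that scale, and among the hormones, LOC116044757 led in piscivore 1 with 2713 TPM, gh1 led in piscivore 2 with 2139 TPM, and LOC116055658 led in planktivore 4 with 610.5 TPM. Of the summed TPM of the 9 hormones other than prl2, gh1 made up 15.3%, 27.2% and 6.91% in piscivore 1, piscivore 2 and planktivore 4, prl 10.7%, 7.61% and 4.45%, and cga 4.59%, 4.46% and 10.7%.

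The upper libraries did not differ from each other by a common factor. Between the highest and the lowest of them, CPM differed 13.8-fold for gh1, 9.63-fold for prl and 4.09-fold for smtla, but 1.71-fold for cga, 1.33-fold for tshba and 1.05-fold for lhb. The pro-opiomelanocortin genes lay between, with 3.47-fold for LOC116055658 and 3.92-fold for LOC116044757. Counted against the alpha subunit of the same library, prl reached 330 counts per 100 counts of cga in piscivore 1 (95% exact interval 321 to 339), 240 in piscivore 2 (229 to 251) and 58.6 in planktivore 4 (55.1 to 62.3). The ratio of gh1 to cga was 357 per 100 (348 to 367), 653 (627 to 681) and 69.3 (65.3 to 73.5). In contrast, tshba came to 50.2 (48.2 to 52.2), 50.7 (47.4 to 54.2) and 64.3 (60.6 to 68.3) per 100. These intervals cover counting error only, and since reads carried no molecular identifiers they are too narrow for molecules.

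Planktivore 4 had the lowest ratio of the 3 libraries for prl, gh1, smtla, both pro-opiomelanocortin genes and fshb, and the highest for tshba and lhb. With 1 planktivore against 2 piscivores on this side, phenotype, dissection and individual cannot be told apart.

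**Figure D2:**
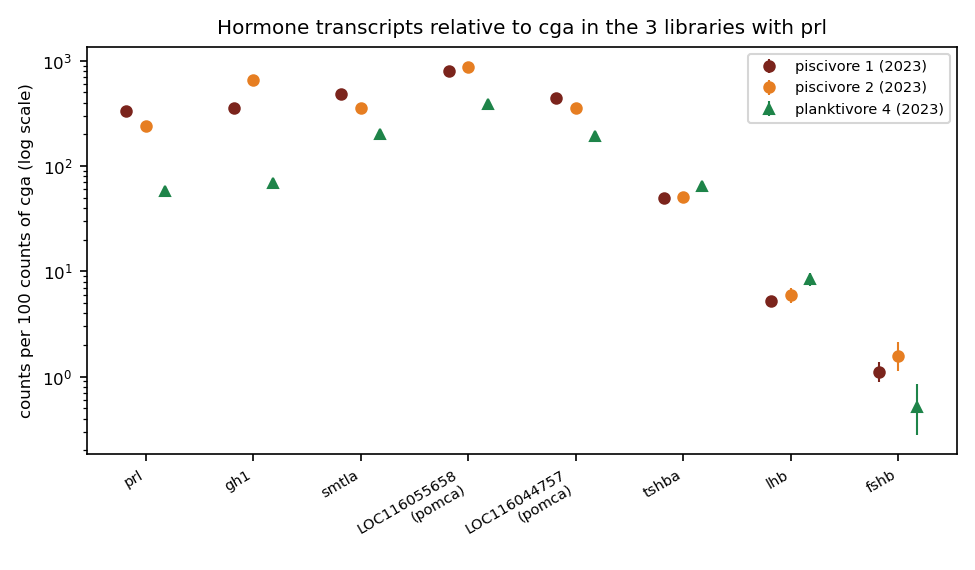
Counts of 8 hormone genes per 100 counts of cga (log axis) in the 3 libraries of 2023 above the prl threshold, with 95% exact intervals that cover counting error only. The green triangles of planktivore 4 lie lowest for prl at 58.6 and for gh1 at 69.3, and highest for tshba at 64.3.

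Transcription factors of the gland followed in part. Of 12 tested, 5 were higher in all 3 upper libraries and none was lower in all 3. Over all genes tested, 10.5% lay higher and 12.8% lower, and as prl chose the sides, this count carries no test. The median difference between the middle libraries of the sides was 0.34 in log2 CPM, beside -0.0046 over all tested genes. Lists of other tissue had larger medians, with 1.32 in cartilage and bone, 1.17 in epithelium, 1.11 in meninges, 0.87 in telencephalon and 0.58 in muscle. Smaller ones were 0.063 in hypothalamus, -0.41 in cerebellum, -0.44 in pineal and retina, -0.62 in erythrocytes and -2.08 in hindbrain and cord. The 0.34 is thus not particular to the gland. Among the 5 were pou1f1, pitx1, lhx3 and LOC118494512, the last annotated as tbx19 in the study's tables. In vertebrates pou1f1 serves the prolactin, growth hormone and thyrotropin cells. It stood at 7.12 CPM in piscivore 1, 3.56 in piscivore 2 and 0.953 in planktivore 4, with 3 counts or fewer in each library below. Its order over the upper libraries was that of prl. That order was shared by smtla, cga, tshba, lhb, both pro-opiomelanocortin genes, lhx3, pitx1 and tbx19.

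The early homeobox factors were present on both sides at unequal levels. For lhx3 the upper libraries gave 2.11, 2.097 and 1.70 CPM and the lower 0.201, 0.660 and 0.132 CPM. For pitx1 they gave 2.73, 2.22 and 1.04 CPM against 0.287, 0.468 and 0.396 CPM, while planktivore 2 of 2022 held 1.36 CPM. The factor tbx19, which switches on pro-opiomelanocortin in mice, was at 1.15, 1.14 and 0.870 CPM above and at 0.115, 0.358 and 0.363 CPM below. The sides overlapped for pitx3, lhx4, neurod4, gata2a, six6a and isl1, most of which are also transcribed in neurons, and hesx1 was too low to be tested.

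Most genes overlapped between the sides, 16403 of the 21386 tested, and the counts of the lists that follow are to be read beside this and beside the 10.5% higher and 12.8% lower given above. Of the receptors for the hypothalamic factors that govern the gland, 9 were tested. In all 9, among them ghrhrb for growth hormone releasing hormone, trhra and trhrb for thyrotropin releasing hormone, crhr1 for corticotropin releasing hormone and drd2a for dopamine, the libraries of the sides overlapped, with a median difference of -0.23. For drd2a the upper libraries lay between 14.6 and 18.2 CPM and the lower between 15.2 and 18.7. Secretory granule proteins and the enzymes that cut prohormones were abundant in every brain. Of 10 such genes 1 was higher and 2 were lower in all 3 upper libraries, near the shares of all genes. The higher one was chga, with 371.2, 376.2 and 353.9 CPM against 304.3, 308.9 and 349.4. The lower ones were scg3 and cpe, cpe with 483.9 to 506.4 CPM above and 621.9 to 762.5 below. The convertases pcsk1 and pcsk2, which cut pro-opiomelanocortin, overlapped.

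A narrower rule asked that the lowest upper library exceed the highest lower library by more than 1 in log2 CPM, with at least 1 CPM in each upper library. In this way 23 genes stood higher, 0.108% of the genes tested, and 5 stood lower, 0.0234%. As the rule and the split use the same libraries, these shares carry no test either. In order of the gap the 23 began with gh1, tshba, prl, cga, lhb and smtla, and they held both pro-opiomelanocortin genes at the 8th and 10th place. Next to these 8 hormone genes stood lhx3 at the 19th and pitx1 at the 23rd place. The hormone fshb and the factors pou1f1 and tbx19 passed the gap but not the minimum, as planktivore 4 held less than 1 CPM of each.

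The other 13 genes of the 23 are not on the pituitary lists. The widest gap among those with a symbol was that of oacyl (chromosome 14, 4225534 to 4231507), an acyltransferase-like gene, with 25.3 CPM in piscivore 1, 17.5 in piscivore 2 and 5.72 in planktivore 4 against 0.0574 to 0.165 CPM below. In 2022 it did not exceed 0.131 CPM. The carbonic anhydrase gene ca4c followed with 3.05, 3.94 and 2.82 CPM against 0.0825 to 0.0990, then ly97.3 with 4.66, 4.32 and 3.64 against 0.132 to 0.344. The order of oacyl over the upper libraries was that of prl and pou1f1. It was also, among others, that of smtla, cga, tshba, lhb, both pro-opiomelanocortin genes, lhx3, pitx1, tbx19 and ly97.3. For ca4c, as for gh1, piscivore 2 stood highest.

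The precursor of substance P, annotated as tac1 in the study's tables (LOC116035996), differed less and was present in all brains, with 23.2, 13.3 and 12.1 CPM above and 5.34, 5.23 and 3.63 CPM below. The channel gene tmc2b had 2.01, 1.72 and 1.61 CPM above and 0.431, 0.193 and 0.132 below. Of the remaining symbols, the folate receptor folr, si:dkey-248g15.3 and si:ch211-221n20.8 stayed below 4 CPM in every library. The unnamed LOC116049981 and LOC116040792 were highest in piscivore 2, with 13.2 and 26.3 CPM, and in 2022 they reached 5.09 and 12.1 CPM in piscivore 2 of that year, which held no prl count.

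Some of the 23 did not go with the hormones in other brains. Interferon-induced genes of the ifi44 family, which respond to viral infection in vertebrates, were represented by LOC116064173 and LOC116040105, both annotated as ifi44a8 in the study's tables. LOC116064173 stood at 170.9 CPM in piscivore 1, 9.09 in piscivore 2 and 159.4 in planktivore 4 against 0.132 CPM or less below, and LOC116040105 at 20.3, 1.08 and 20.5 CPM against 0.115 or less. LOC116034523, without a name here, ran alongside with 65.5, 1.84 and 39.8 CPM against 0.220 to 0.603. Planktivore 4 of 2022, with 1 count of prl, held 78.3, 7.00 and 23.4 CPM of the same 3 genes. In that brain these transcripts were high without prolactin, and in piscivore 2 they were lowest of the upper side although its gh1 was highest.

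The 5 genes that stood lower in the upper libraries were LOC116036696, LOC116061913, LOC118493475, LOC116035197 and fat2. LOC116036696 (chromosome 17, 27411395 to 27415550) was all but absent above, with 0.107, 0 and 0 CPM, and stood at 23.8, 16.6 and 22.1 CPM in piscivore 4, planktivore 5 and planktivore 6. In 2022 it reached 9.73 CPM in planktivore 3 and at most 0.0655 CPM in the other 5 brains. LOC116061913 was at most 0.161 CPM above and 1.87 to 2.74 below, LOC118493475 at 1.82 to 7.95 against 33.7 to 49.3, and LOC116035197 at 0.0635 to 14.6 against 45.3 to 65.0 CPM. The cadherin gene fat2, known from cerebellar granule cells in mammals, had 14.5, 55.9 and 54.2 CPM above and 111.8, 135.2 and 115.8 below. Of the 5 genes, 4 were highest of 2022 in planktivore 3, the brain with the most hormone counts of that year. There LOC116061913 stood at 1.42 CPM, LOC116035197 at 28.2 and fat2 at 247. The remaining gene, LOC118493475, stood at 23.2 to 87.5 CPM in 2022 and was lowest in that brain.

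**Figure D3:**
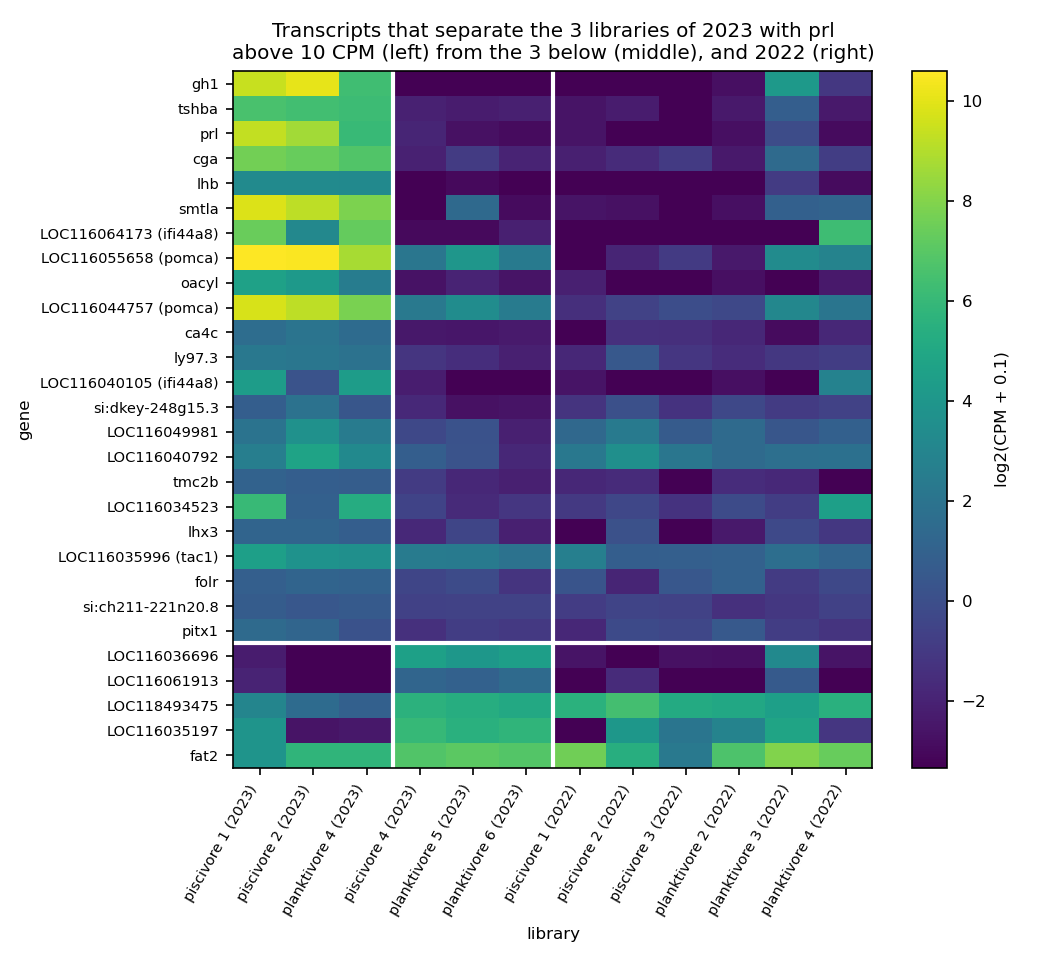
Heat map of log2(CPM + 0.1) for the 23 genes higher (top) and the 5 genes lower (bottom) in the libraries above the prl threshold, with 1 column per library. The 8 hormone genes are brighter in the 3 left columns than in the middle ones, and planktivore 4 of 2022 at the right edge repeats the ifi44a8 genes, at 78.3 and 7.00 CPM, with 1 count of prl.

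The brains of 2022 took no part in the split, and none of them passed the threshold. The highest prl count was 25, in planktivore 3 of 2022, and the other 5 had 0 or 1. The same brain held 540 counts of gh1 (18.2 CPM), 79 of cga (2.67 CPM), 49 of tshba (1.65 CPM) and 13 of lhb, each the highest of 2022. These levels lay between the sides of 2023, with gh1 18.2 CPM against 78.7 in the lowest upper library and 0 below. Planktivore 3 of 2022 also held 55 counts of smtla, 309 of LOC116055658 and 251 of LOC116044757. Planktivore 4 of 2022 had another mixture, with 64 counts of smtla, 229 of LOC116055658 and 131 of LOC116044757 but 1 of prl, 12 of gh1 and 15 of cga. Somatolactin together with pro-opiomelanocortin, and little of the other hormones, was thus seen in planktivore 4 of 2022 and in planktivore 5 of 2023. The 3 piscivores and planktivore 2 of 2022 held 16 to 51 counts over all 10 hormone genes, fewer than any brain of 2023. Of the 23 genes higher by the gap rule, 16 lay lower in every brain of 2022 than in the lowest upper library, and 7 did not. As the 23 were chosen for being high in the upper libraries, this count is favoured by the choice and carries no test. The share over all genes was not computed.

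Markers of other tissue varied too, and their part in the differences above was not tested. Markers of the hypothalamus, to which the gland is attached, summed over 14 genes to 340.6 to 407.2 CPM in the upper libraries, to 328.1 and 338.8 in piscivore 4 and planktivore 5, and to 136.1 in planktivore 6. In 2022 the sum was 23.6 to 150 CPM, highest in planktivore 3. The sides of 2023 overlapped in 13 of the 14 genes, and 1, gnrh3, which encodes a gonadotropin-releasing hormone, was higher in all 3 upper libraries, where 10.5% of all genes were. It stood at 6.85, 7.18 and 1.53 CPM against 0.746, 1.27 and 0.396. The neuropeptide oxt stood at 249.3, 202 and 73.3 CPM above and at 211.1, 162.6 and 7.36 below. Piscivore 4 and planktivore 5, below the prl threshold, thus held oxt within the range of the upper libraries.

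Cerebellar markers summed to 767.3, 1829 and 2295 CPM in the upper libraries and to 2189, 2470 and 2582 in the lower. Piscivore 1 decided the width of this range, with 132.1 CPM of neurod1 and 5.73 of cbln12 where the other 5 libraries held at least 474.1 and 395.7. Of 6 genes, neurod1, zic1 and zic2a were lower in all 3 upper libraries, where 12.8% of all genes were. For neurod1 the sides nearly met, at 579.8 CPM in planktivore 4 and 582.8 in planktivore 6. Markers of cartilage and bone summed to 62.8 to 341.3 CPM above and 37.6 to 78.8 below, and those of the meninges to 230.4 to 726.2 and 123.1 to 265.5. Piscivore 1 was the highest library in both, with 247.8 CPM of col10a1a, a collagen of hypertrophic cartilage, against at most 4.18 in the other 5. In the cartilage and bone list only col10a1a, and in the meninges list only col1a1a, was higher in all 3 upper libraries, 1 gene of 7 and 1 of 9 tested beside the 10.5% of all genes, and the defining cartilage gene col2a1a overlapped with 4.23, 2.03 and 37.4 CPM above and 9.47, 1.65 and 1.25 below.

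Telencephalic markers summed to 46.2 to 168.1 CPM above and 40.5 to 86.8 below, and 1 of 8, dlx2a, was higher in all 3, near the share of all genes. The hindbrain and spinal cord genes hoxb8a and hoxb5a were present in piscivore 2 and planktivore 5, on either side, with 3.43 and 5.36 CPM of hoxb8a against 0 in the other 4. Of 2 epithelial genes tested, epcam was higher in all 3 upper libraries, as were 10.5% of all genes. It stood at 11.6, 11.8 and 17.4 CPM against 9.04, 3.60 and 3.33. The other, krt8, overlapped, with 392.5 to 718.3 CPM above and 191.0 to 487.5 below. Skeletal muscle summed to 46.6 CPM in planktivore 4 and to at most 11.8 in the other libraries of 2023. The planktivores of 2022 held 38.2 to 49.2 CPM and the piscivores of 2022 held 5.41 to 10.3. Erythrocyte genes summed to 109.5 to 513.5 CPM above and 210.2 to 333.4 below, and none of the muscle, erythrocyte, pineal or hindbrain genes tested separated the sides.

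**Figure D4:**
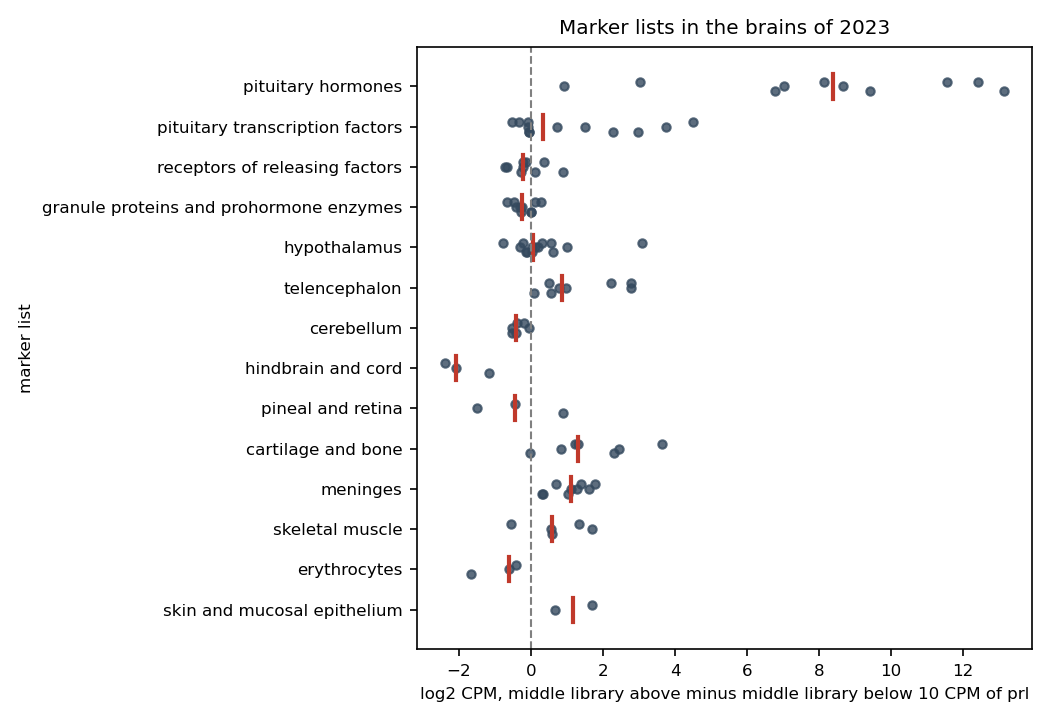
Difference in log2 CPM between the middle library above and the middle library below the prl threshold, with 1 point per tested gene in each of 14 lists, the list median as a red bar and the median of all tested genes as a dashed line. The hormones reach furthest, with a median of 8.40, while receptors and granule proteins lie around the dashed line. The median of the pituitary transcription factors, 0.34, lies below that of cartilage and bone at 1.32 and above that of the cerebellum at -0.41.

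**Figure D5:**
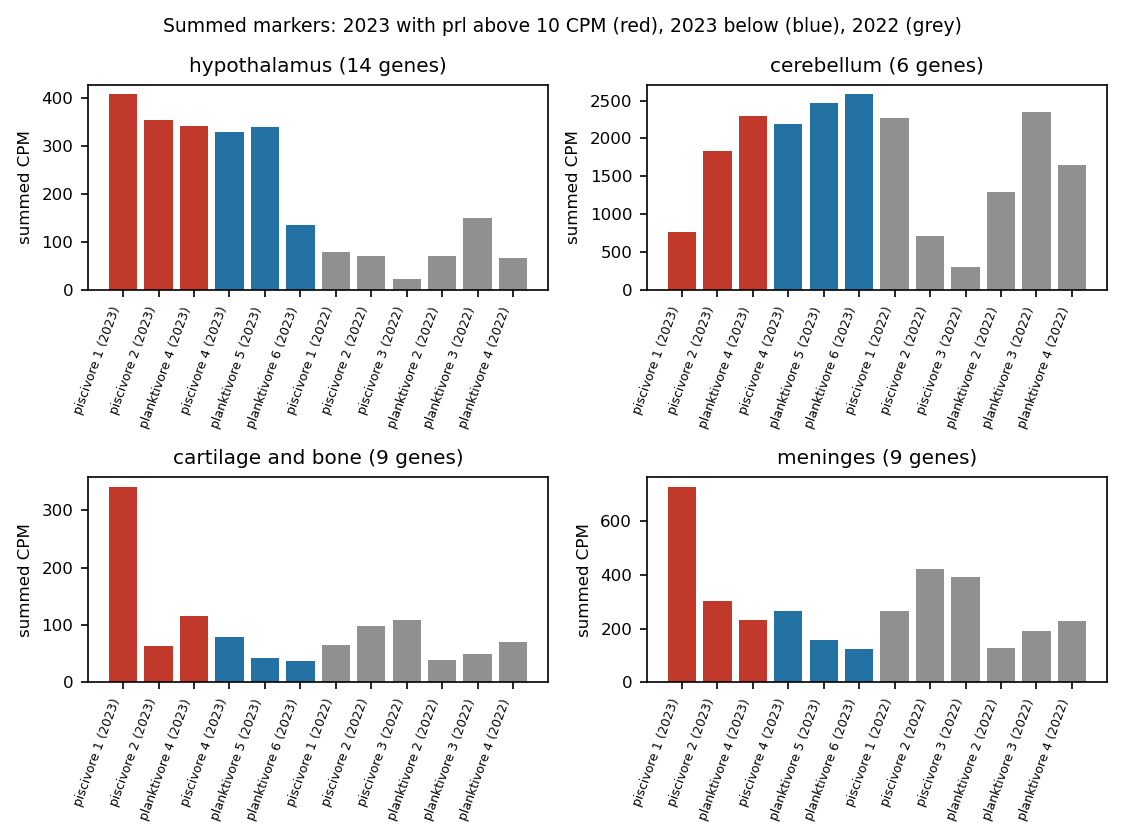
Summed CPM of the markers of the hypothalamus, the cerebellum, cartilage and bone, and the meninges in each library (bars from 0). Piscivore 1 is lowest of 2023 in the cerebellum at 767.3 CPM and highest in cartilage and bone at 341.3 CPM. Planktivore 6 is lowest of 2023 in the hypothalamus at 136.1 CPM, with the lowest oxt of 2023 at 7.36 CPM.

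The labels of the phenotypes do not depend on the threshold. Their comparison set 2 piscivores above it and 1 below against 1 planktivore above it and 2 below. With edgeR's quasi-likelihood test, 36 of 21386 genes, 0.168%, were differentially transcribed (DT) between piscivores and planktivores of 2023 (adjusted p below 0.05, and more than 1 apart in log2). None of the 23 genes higher by the gap rule, none of the 5 lower and none of the 10 hormones was among them. The gap rule sets 1 brain of each phenotype apart from the other 2, so its genes vary widely within both phenotypes. For those genes, and for prl, the outcome was largely fixed by their choice and is no independent result. In the 23 the smallest adjusted p was 0.442 and none had an unadjusted p below 0.05. In the hormones it was 0.322, for fshb, the only hormone with an unadjusted p below 0.05. Over all 21386 genes, 2926 had an unadjusted p below 0.05 in this edgeR test. With DESeq2, which called 388 genes or 1.81%, none of the genes of the gap rule and none of the hormones was DT, though 4 of the 23 received no adjusted p.

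The fold changes were large and so were their errors. For prl the log2 fold change was 4.01 with a standard error of 3.10 (edgeR adjusted p = 0.631), and for gh1 it was 4.54 with 3.44 (adjusted p = 0.623). For tshba it was 1.36 with 2.54, and for LOC116055658 2.72 with 2.41. In prl and gh1, 1 brain of each phenotype stood apart from the other 2, piscivore 4 low and planktivore 4 high. The factor pou1f1, at 3.46 with 1.59 (adjusted p = 0.402), and the receptor trhrb, at 1.63 with 0.34 (adjusted p = 0.126, DESeq2 adjusted p = 0.000358), were not DT by edgeR, and trhrb alone of the 4 pituitary lists was DT by DESeq2. Its levels did not follow the prl threshold, with 5.67 to 30.2 CPM in the upper libraries and 6.41 to 14.4 in the lower.

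When the side of the threshold entered the model as a further term, 8 genes were DT by phenotype in place of 36, while the genes with an unadjusted p below 0.05 numbered 3623 in place of 2926. Of the 36, 6 stayed DT and all 36 kept their direction. The term was built from prl itself and leaves fewer residual degrees of freedom, so these counts do not show what part of the phenotype calls goes with the split.

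In 2022, where hormone transcripts were at most 18.2 CPM, 11 of 20624 genes or 0.0533% were DT between phenotypes by edgeR and 144 or 0.698% by DESeq2. Of the hormones only fshb and LOC116044757 had counts enough to be tested, and neither was DT by edgeR. LOC116044757 was lower in piscivores, with 0.262, 0.560 and 0.893 CPM in piscivores 1, 2 and 3 of 2022 and 0.706, 8.48 and 4.18 in planktivores 2, 3 and 4. The log2 fold change was -2.93 with a standard error of 0.91 (edgeR adjusted p = 0.542), and DESeq2 called it (adjusted p = 0.0213). The phenotypes overlapped, since planktivore 2 lay below piscivore 3. In 2023 the same gene had the opposite sign, at 2.67 with 2.16. Whether the phenotype difference itself differed between the years was not tested.

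Between the years, each phenotype was compared with itself. Within each phenotype the fish of the later year were smaller, with no overlap in standard length. The year also went with the batch date of the sample records and with the share of ribosomal RNA. The summed hypothalamic markers were higher in every piscivore of 2023 than in any of 2022. In planktivores they overlapped, with 136.1 CPM in planktivore 6 of 2023 and 150 in planktivore 3 of 2022. Year, body size and these other differences cannot be told apart here. In piscivores 73 of 20511 genes, 0.356%, were DT by edgeR and 363, 1.77%, by DESeq2. Both pro-opiomelanocortin genes stood higher in 2023 and were called by DESeq2 alone, with fitted changes of 12.18 in log2 for LOC116055658 with a standard error of 2.87 (edgeR adjusted p = 0.176, DESeq2 adjusted p = 2.48e-07) and 9.68 for LOC116044757 with 2.30 (edgeR adjusted p = 0.177, DESeq2 adjusted p = 5.04e-08). In each, every piscivore of 2023 lay above every piscivore of 2022. This included piscivore 4, below the prl threshold, at 4.36 against at most 0.420 CPM for LOC116055658. Without any of the other 5 piscivores in turn, the edgeR adjusted p of both genes was 0.274 to 0.453. Without piscivore 4 it passed the threshold (0.00359 and 0.00115), but that leaves only the piscivores of 2023 chosen by their prl, so these values are no test of the year. By DESeq2 alone prl2, six6a and isl1 were also DT and higher in 2023, prl2 by 2.41 with 0.52 (edgeR adjusted p = 0.113, DESeq2 adjusted p = 0.0203). The genes prl, gh1, smtla, tshba, cga and lhb did not pass the count filter, because they reached its level in only 2 of these 6 libraries.

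In planktivores 207 of 21311 genes, 0.971%, were DT by edgeR between the years and 580, 2.72%, by DESeq2. None of the 7 hormones tested was DT by edgeR, and none had an unadjusted p below 0.05, as 4264 of the 21311 genes had. The smallest adjusted p was 0.250, for LOC116044757, which was higher in 2023 by 4.12 with a standard error of 1.67. DESeq2 gave no adjusted p for any of the 7. In this comparison 1 brain of 2023 above the prl threshold stood beside 2 below it. Without planktivore 4 of 2023 the sign of gh1 and cga turned, from 2.06 to -10.53 and from 5.08 to -1.82. The value of -10.53 stands against brains with no gh1 count, so it depends on the prior count and is no bound. The precursor tac1 was not DT by edgeR in either phenotype between the years (adjusted p = 0.242 in piscivores and 0.136 in planktivores), and DESeq2 called it in both, higher in 2023.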

How the data were processed

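RNA of 12 pikeperch brains was analysed, 1 library per fish, with groups taken from the sample records. Reads had been trimmed by the authors (Trimmomatic) and mapped to SLUC_FBN_1.2 (STAR 2.5.2), and exon reads per gene were deposited as counts without normalization. The authors also deposited TPM. Strandedness of the counting was not given in the sources used here. Of 32987 lines 24 name no gene (0.589% to 3.18% of the counts) and were left out. Of 32963 genes, 31453 matched RefSeq's table of SLUC_FBN_1.2 by symbol with equal start and end.

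Libraries of 2023 were split at 10 CPM of prl over the library total. Elsewhere CPM used TMM factors, and log2 CPM a prior count of 2. The middle library is the second highest of 3. Phenotypes were compared with edgeR 4.0.16 in R 4.3.3 (filterByExpr, TMM, robust quasi-likelihood F test, Benjamini-Hochberg adjustment over all genes), with calls at an adjusted p below 0.05 and a difference of more than 1 in log2. Nothing says that fish of a group came from separate catches, so p-values measure the spread between these fish. Alternatives were DESeq2 1.42.0, other scaling, filters and gaps, TPM (pseudocount 0.1), the prl side as a term, the replicate number as a block and leaving out each library. On data simulated for the phenotypes of 2023, edgeR called 91.5% of 200 genes changed by a log2 of 2 among 21165, with 8 false calls. The changed genes had a mean above 1 CPM and counts were drawn independently for each gene. Differences of whole tissues between brains were not simulated, so this share does not give the power of the comparison. Intervals are exact binomial (Clopper-Pearson) at 95%. Standard errors beside edgeR's fold changes were derived, as the absolute log2 fold change over the square root of the F statistic. Members and lists were chosen with earlier results of these data known, and the comparisons between years were added after the hormone levels of 2022 had been seen. Genes named were the detected members of 4 pituitary lists, the 23 and 5 genes of the gap rule (the 20 and 5 widest gaps, and 3 further ones chosen after their values were seen), and markers that singled out a library, chosen likewise. Some members of the lists count in the totals but are not reported here. Names of LOC identifiers came from the study's supplementary tables. Python 3.11.15 with pandas 2.3.3, scipy 1.17.1 and matplotlib 3.10.9 made tables and figures.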

Additional observations from a re-analysis of the deposited data

How the results depend on the processing

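The 23 genes higher by the gap rule became 22 with counts over the library total, 23 with DESeq2's size factors or a prior count of 0.5, 25 on TPM, 43 at a minimum of 0.1 CPM, 12 at 5 CPM, 2072 at any gap and 14 at a gap above 2, and 26 to 108 when 1 library was left out (41 without piscivore 2, 53 without planktivore 4, 108 without piscivore 4). The 8 hormone genes were among them under each of these settings. The 5 lower genes became 10 on TPM, 2666 at any gap, 3 at a gap above 2 and 8 to 27 when 1 library was left out, lowest without planktivore 6 and highest without piscivore 1.

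DT genes between phenotypes of 2023 numbered 388 with DESeq2, 60 with no filter beyond 1 count, 8 with the prl side as a term and 1 to 16 without 1 library, against 36, with 1 without piscivore 1 or planktivore 6. In 2022 they numbered 144 with DESeq2, 43 with no filter beyond 1 count and 0 to 2 without 1 library, against 11 (942 to 2342 genes then had an unadjusted p below 0.05). Fish numbers 2 and 3 occur in both phenotypes of 2022 and name different fish. With the number as a replicate block 18 genes were DT, which rests on a shared number only. No paired analysis was possible in 2023 because the phenotypes share a single number. Between years DESeq2 called 363 genes in piscivores and 580 in planktivores, and without 1 library edgeR called 22 to 77 and 12 to 148, against 73 and 207. In planktivores between years, gh1 and cga reversed without planktivore 4 of 2023, to -10.53 and -1.82, and over all libraries left out they ranged from -10.53 to 6.74 and from -1.82 to 6.895. Each such count comes from a fit on fewer fish, and other causes were not tested. The correlation of hormones with prl over 2022 was not run, since 5 of 6 libraries held at most 1 prl count and the other 25.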
